A study of Mus musculus with 9 samples.

Results

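All genes described here but Acta2 encode matricellular or provisional matrix proteins. These are known from the granulation tissue that fills a fracture gap before cartilage and bone replace it. Acta2 encodes an actin inside contractile cells of that tissue. The 9 genes were taken by symbol from the deposited table of 22054 genes, namely Postn, Tnc, Thbs1, Thbs2, Thbs3, Thbs4, Fn1, Sparcl1 and Acta2, and each symbol matched 1 row. Callus RNA was sequenced on day 7 after a femoral fracture in male C57BL/6J mice, whose age the sample labels give as 7 weeks. All mice had the same fracture with a needle in the marrow cavity and received injections of 200 μl for a week. Daily injection into the peritoneum is stated for both drug groups and not spelled out for the PBS group. The H-151 group (3 libraries) received 750 nmol of H-151, a covalent STING inhibitor, the SR-717 group (3 libraries) 30 mg/kg of SR-717, a STING activator that mimics cGAMP, and the PBS group (3 libraries) an equal volume of buffer. Drug was given to the whole animal and RNA came from whole callus, so fewer cells of a type and less RNA per cell cannot be told apart. The labels name the libraries replicate biosamples 1 to 3 of a group without stating that they came from separate mice, so p-values measure only the spread between these samples.

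Matricellular proteins are secreted into the extracellular matrix but regulate how cells attach, move and signal more than they bear load. They appear in development and return after injury, when fibroblasts and periosteal progenitors lay them down with fibronectin as a provisional matrix. Contractile myofibroblasts, recognised by smooth muscle α-actin, the product of Acta2, pull on this matrix, and TGF-β released there sustains both the actin and several of the matrix genes.

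Libraries held between 16987398 and 23272480 expected counts, which were rounded and tested with edgeR's quasi-likelihood fit. CPM below are counts scaled to a common library total of 1000000 after TMM scaling of the 9 libraries, and TPM are the authors' values per gene length. SR-717 replicate 1 stood apart, at 100.6 on the first principal component (46.6% of the variance of log2 CPM), followed by PBS replicate 1 at 38.8, with the other 7 libraries between -28.8 and -4.03. In these same libraries the 7 inflammatory genes of a marker list (Tnf, Il1a, Il1b, Cxcl2, Cxcl3, Nos2 and Ptgs2) summed to 2547 and 424 CPM, against 35.4 to 104 CPM in the other 7, and the 7 cartilage markers to 739 and 2069.6 CPM against 5095 to 14804 CPM. Col2a1, the main collagen of cartilage, was present in every library but ranged from 50.2 CPM in SR-717 replicate 1 to 10567 CPM in PBS replicate 2, and Col1a1, the main collagen of bone and fibrous tissue, from 21135 to 41331 CPM. For the 9 genes, results that rest on these libraries are given with and without them.

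All 9 genes were expressed at 1817 or more expected counts in each library and passed the filter on low counts in every comparison. Together they took 0.860% to 1.40% of a library's counts. Fibronectin (Fn1, ENSMUSG00000026193), the scaffold of provisional matrix, had the highest level for its length at 1200.0 ± 396 TPM (SD, n = 9). Periostin (Postn, ENSMUSG00000027750), a periosteal protein that aids collagen crosslinking, followed at 759 ± 326 TPM, and tenascin C (Tnc, ENSMUSG00000028364), which weakens adhesion to fibronectin, at 504 ± 109 TPM (SD, n = 9 each). Acta2 (ENSMUSG00000035783) stood at 349.9 ± 133 TPM, then Thbs1 (ENSMUSG00000040152) at 337 ± 117, Thbs2 (ENSMUSG00000023885) at 293 ± 85.5 and Thbs4 (ENSMUSG00000021702) at 247 ± 77.2 TPM (SD, n = 9 each). The lowest levels were those of Sparcl1 (ENSMUSG00000029309), which encodes the SPARC relative hevin, at 109.9 ± 18.2 TPM and of Thbs3 (ENSMUSG00000028047) at 92.7 ± 30.7 TPM (SD, n = 9 each). Thbs4 exceeded Sparcl1 in 9 of 9 libraries, by 137 ± 70.2 TPM (mean and SD of the difference within a library). For every other pair of neighbours in this order the difference was smaller than its SD, as for Fn1 over Postn (441 ± 577 TPM, higher in 7 of 9 libraries) and Acta2 over Thbs1 (13.1 ± 146 TPM, 5 of 9).

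Genome positions are those of GENCODE M21 on GRCm38, the assembly that mm10 in the submitters' processing notes denotes. Fn1 lies on chr1:71585520-71653200, Thbs1 on chr2:118111876-118127133, Postn on chr3:54361109-54391037, Thbs3 on chr3:89215180-89226837, Tnc on chr4:63959785-64047015, Sparcl1 on chr5:104079111-104113733, Thbs4 on chr13:92751590-92794818, Thbs2 on chr17:14665500-14694235 and Acta2 on chr19:34241090-34255590. The 4 thrombospondin genes therefore sit on 4 chromosomes. Counts refer to whole genes, so the alternatively spliced forms of Fn1, Tnc and Postn are not separated.

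**Figure D1:**
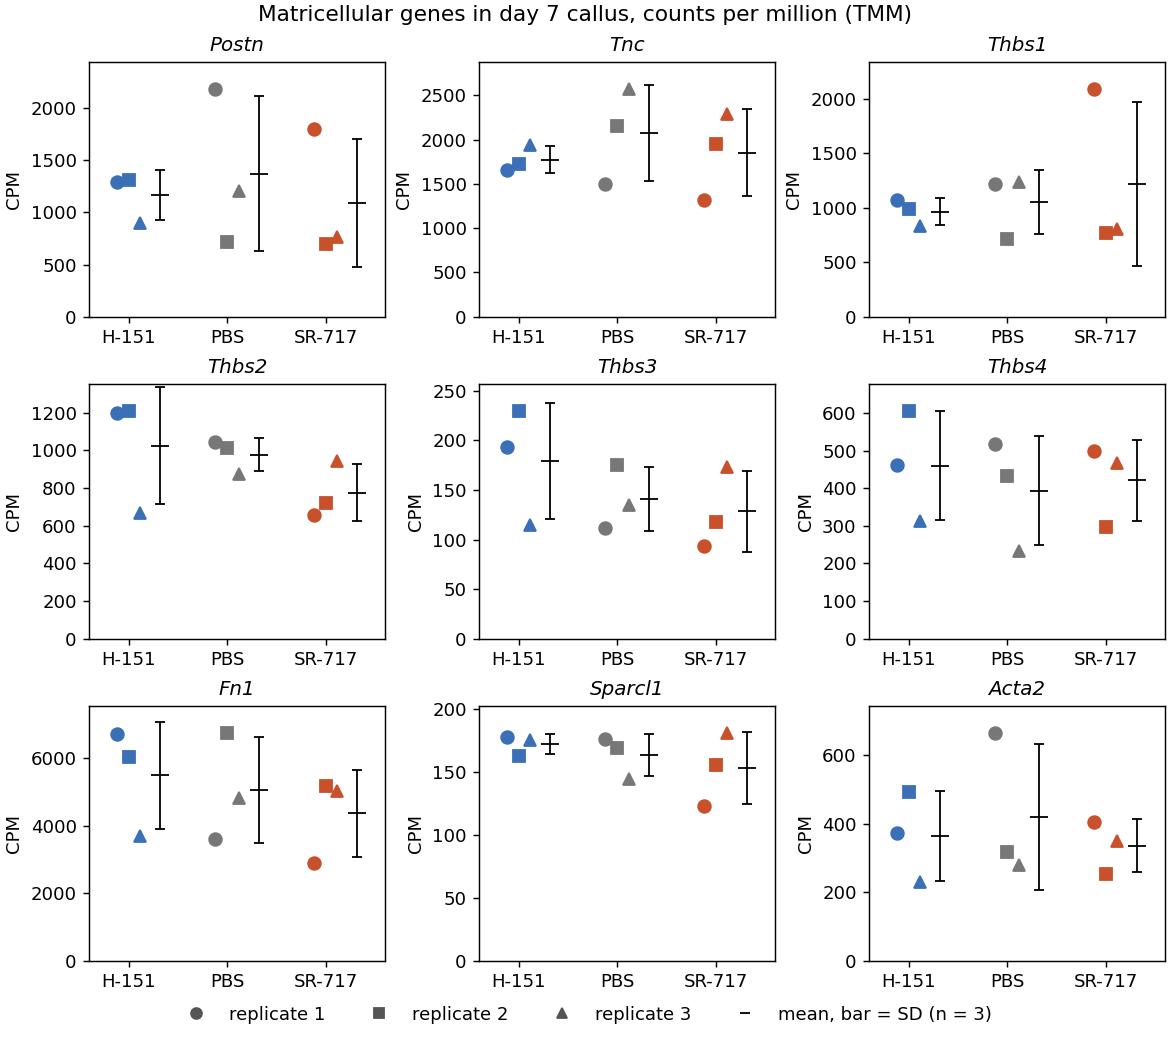
CPM (vertical axes, from 0) of the 9 genes in each library of the H-151, PBS and SR-717 groups (horizontal axes). Symbols mark replicates 1 to 3 and black bars the mean and SD of 3 libraries. The groups overlap in every panel, and the highest libraries stand far above the rest of their group for Postn (PBS replicate 1 and SR-717 replicate 1), Thbs1 (SR-717 replicate 1) and Acta2 (PBS replicate 1).

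The scaffold and adhesion-modulating proteins are described first. Fn1 stood at 6725 (replicate 1), 6041 and 3700.5 CPM in the H-151 group, at 3599.6, 6738 and 4834 CPM in the PBS group and at 2883, 5183 and 5019.5 CPM in the SR-717 group. Replicate 1 was the lowest library of the PBS and SR-717 groups, whereas in the H-151 group the lowest was replicate 3. Tnc stood at 1651, 1725 and 1941 CPM in the H-151 group, at 1496, 2154 and 2567 CPM in the PBS group and at 1319, 1949 and 2287 CPM in the SR-717 group. The H-151 libraries were the closest to each other for this gene, with a coefficient of variation of 8.50% against 26.1% and 26.5% in the PBS and SR-717 groups. Postn stood at 1296, 1309 and 896 CPM in the H-151 group, at 2179.9, 721 and 1209 CPM in the PBS group and at 1799, 702 and 768 CPM in the SR-717 group. Its highest 2 libraries were PBS replicate 1 and SR-717 replicate 1, the libraries in which Tnc and Fn1 were low. The ratio of Tnc to Postn in TPM was accordingly 0.286 and 0.314 in these 2 libraries, and between 0.543 and 1.31 in the remaining 7. Sparcl1, whose product is anti-adhesive and abundant in vessels, varied least of the 9, from 123 CPM in SR-717 replicate 1 to 181 CPM in SR-717 replicate 3, with a coefficient of variation of 11.6% over the 9 libraries.

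Thrombospondins 1 and 2 form trimers that bind CD36 and CD47 and restrain vessel growth, and thrombospondin 1 also activates latent TGF-β. Thbs1 stood at 1073, 990.1 and 829 CPM in the H-151 group, at 1216, 709 and 1234 CPM in the PBS group and at 2087, 767 and 807 CPM in the SR-717 group. The SR-717 mean thus combined the highest of the 9 libraries with 2 of the 3 lowest. Thbs2 stood at 1200.0, 1208 and 666 CPM in the H-151 group, at 1044, 1015 and 876 CPM in the PBS group and at 658, 722 and 946 CPM in the SR-717 group. In TPM, Thbs1 was 3.20 times Thbs2 in SR-717 replicate 1 and 0.704 to 1.42 times Thbs2 in the other 8 libraries. Thrombospondins 3 and 4 form pentamers and occur in cartilage, tendon and muscle. Thbs3 ranged from 93.9 CPM in SR-717 replicate 1 to 229 CPM in H-151 replicate 2, with means of 179 ± 58.6, 141 ± 32.1 and 128 ± 41.0 CPM (SD, n = 3 each) in the H-151, PBS and SR-717 groups. Thbs4 ranged from 233 CPM in PBS replicate 3 to 605 CPM in H-151 replicate 2, with means of 460.3 ± 145, 394 ± 146 and 421 ± 108 CPM (SD, n = 3 each). The libraries of the 3 groups overlapped for both genes.

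Acta2 stood at 373, 492 and 229.7 CPM in the H-151 group, at 664, 317 and 278 CPM in the PBS group and at 404, 252 and 349.9 CPM in the SR-717 group. PBS replicate 1 was 2.39 times PBS replicate 3, a range wider than that within the H-151 group (2.14) or the SR-717 group (1.60). Promoter windows of RefSeq (GRCm38.p6, 250 bases before to 50 bases after an annotated start) were found for 6 of the 9 genes, namely Postn, Tnc, Thbs2, Thbs3, Thbs4 and Acta2, in 8 windows, and not for Fn1, Thbs1 and Sparcl1. They were searched on both strands for the CArG box, the element read by serum response factor, for TGANTCA (AP-1), for CATTCC (the MCAT element read by TEAD factors) and for TATAAA. The sequences below are shown because Acta2 held both kinds of element known for smooth muscle genes. The exact CArG box was in 0 of the 8 windows and in 1.63% of all 32851 windows. With 1 G or C allowed in its core, a form chosen after the exact form had given no match, it was found in the Acta2 window alone and in 8.50% of all windows, at 2 positions 84 and 34 bases before the annotated start. CATTCC was in the windows of Acta2 and Thbs4 and in 14.7% of all windows, and TGANTCA was in 0 of the 8 and in 7.81% of all. TATAAA was in 4 of the 8 windows, those of Postn, Thbs2 and both of Tnc, and in 13.6% of all. The 2 Tnc windows overlap and hold the same element, so this site was counted in both. It lay 126 or 205 bases before the annotated starts. The Postn element lay 26 bases before its start, and that of Thbs2 126 bases before and on the other strand. Each sequence is given 5′ to 3′ on the gene's strand, with the matched letters in capitals and up to 10 flanking bases on each side.
Acta2, CArG-like element, chr19:34255438-34255467, minus strand: gtgctgaggtCCCTATATGGttgtgttaga
Acta2, CArG-like element, chr19:34255388-34255417, minus strand: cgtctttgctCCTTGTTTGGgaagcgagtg
Acta2, MCAT element read on the other strand, chr19:34255504-34255529, minus strand: gcagaacagaGGAATGcagtggaaga
Thbs4, the second of 2 adjacent MCAT elements, chr13:92794995-92795020, minus strand: cacctcattcCATTCCgtctggtctc
Postn, TATA element, chr3:54361071-54361096, plus strand: cccagagctaTATAAActcagctctc
These matches describe the letters of the windows and were not tested for binding.

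To ask whether STING activation altered these genes relative to buffer, SR-717 was compared with PBS. None of the 9 was called at an unadjusted p under 0.05 with a 1.5-fold change, where 0.519% of the 14070 genes tested were (73 genes). None of the 9 had an unadjusted p under 0.05, where 0.689% did. At an adjusted p under 0.05 edgeR called 0 genes of the whole table (97 had an unadjusted p under 0.05) and DESeq2 also 0. In 0 of the 9 did the groups fail to overlap, a state reached by 3.75% of genes tested. Fold changes lay below 0 on the log2 scale for 7 of 9 genes, with a median of -0.16, against 47.8% of all genes tested and a median of 0.014. The largest were those of Thbs2 (-0.34, standard error 0.21, 95% interval -0.84 to 0.17), Postn (-0.33, standard error 0.53, interval -1.61 to 0.95) and Acta2 (-0.32, standard error 0.38, interval -1.24 to 0.60). For Postn this interval spans 0.327 to 1.93 times the PBS level. Thbs1 (0.21, standard error 0.46) and Thbs4 (0.096, standard error 0.35) had higher means in the SR-717 group. The direction of several genes was set by 1 library. Without SR-717 replicate 1 the log2 fold change of Thbs1 was -0.42, that of Thbs4 -0.045, and those of Tnc, Thbs3, Fn1 and Sparcl1 were 0.039, 0.052, 0.020 and 0.045. Without PBS replicate 1 those of Postn and Acta2 were 0.17 and 0.17. Without PBS replicate 2 Thbs1, Thbs3 and Fn1 were at -0.014, 0.050 and 0.048, and without PBS replicate 3 Tnc and Thbs4 were at 0.021 and -0.17. With both SR-717 replicate 1 and PBS replicate 1 left out, Thbs1, Sparcl1 and Acta2 were at -0.29, 0.12 and 0.034. Thbs2 was below 0 in each of these fits, between -0.50 and -0.16. Blocking on the replicate number, edgeR called 443 genes of the table and 0 of the 9.

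STING inhibition was examined by comparing H-151 with PBS. None of the 9 genes was called, where 0.426% of the 14085 genes tested were (60 genes), none had an unadjusted p under 0.05 (0.646% of genes tested), and the groups of 0 of the 9 failed to overlap (3.87% of genes tested). No gene of the table had an adjusted p under 0.05 in edgeR (91 had an unadjusted p under 0.05) or DESeq2. Of the 9 fold changes 4 lay below 0, with a median of 0.068, against 55.8% and -0.025 over all genes tested. The largest was that of Thbs3, at 0.35 (standard error 0.29, 95% interval -0.34 to 1.03), followed by Postn at -0.23 (standard error 0.40), Tnc at -0.22 (standard error 0.24) and Thbs4 at 0.22 (standard error 0.35). The interval was narrowest for Sparcl1, at 0.076 (-0.24 to 0.40), so a change of more than 1.32-fold upward lies outside it. Without H-151 replicate 3, the lowest H-151 library of Thbs3, its log2 fold change was 0.59 with an unadjusted p of 0.0455 and an adjusted p of 0.999 (edgeR). Without PBS replicate 1, Postn was at 0.29 and Acta2 at 0.31, and Acta2 was also above 0 without H-151 replicate 3 (0.044). Fn1 (without H-151 replicate 1 or PBS replicate 1) and Thbs2 (without H-151 replicate 1, H-151 replicate 2 or PBS replicate 3) also changed sign, within -0.067 to 0.40 and -0.067 to 0.30, as did Thbs4 without H-151 replicate 2 or PBS replicate 3 (-0.043 to 0.48). Without PBS replicate 1 or PBS replicate 3 Thbs1 (-0.33 to 3.5e-03), and without PBS replicate 3 Sparcl1 (-4.3e-03 to 0.14), crossed 0 by under 0.01. Blocking on the replicate number gave 262 called genes in the table and 0 of the 9.

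The activator was also compared with the inhibitor. Between SR-717 and H-151, 0 of the 9 genes were called, where 0.756% of the 14151 genes tested were (107 genes), none had an unadjusted p under 0.05 (1.03% of genes tested), and in 0 of the 9 the groups did not overlap (5.18% of genes tested). At an adjusted p under 0.05 edgeR called 0 genes of the table, with 146 at an unadjusted p under 0.05, and DESeq2 called 1. The fold changes of 7 genes lay below 0, with a median of -0.14, against 46.6% and 0.019 over all genes tested. This contrast shares its libraries with both contrasts above and is not independent of them. Thbs3 was at -0.49 (standard error 0.33, 95% interval -1.29 to 0.31), Thbs2 at -0.41 (standard error 0.29, interval -1.11 to 0.28), Fn1 at -0.34 (standard error 0.35) and Thbs1 at 0.33 (standard error 0.42). Thbs2, Thbs3, Fn1 and Sparcl1 were below 0 whichever single library was left out. Thbs2 reached -0.65 (unadjusted p = 0.0303, adjusted p = 0.999, edgeR) without H-151 replicate 3, its lowest H-151 library. Postn reached -0.68 (unadjusted p = 0.0193, adjusted p = 1.00, edgeR) without SR-717 replicate 1, but was at 0.12 without SR-717 replicate 2 and at 0.089 without SR-717 replicate 3. Without SR-717 replicate 1 Thbs1 was at -0.30, and without SR-717 replicate 3 Tnc was at -0.12. Without H-151 replicate 2 Thbs4 and Acta2 were at 0.11 and 0.15, and without SR-717 replicate 2 they were at 0.056 and 0.034.

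**Figure D2:**
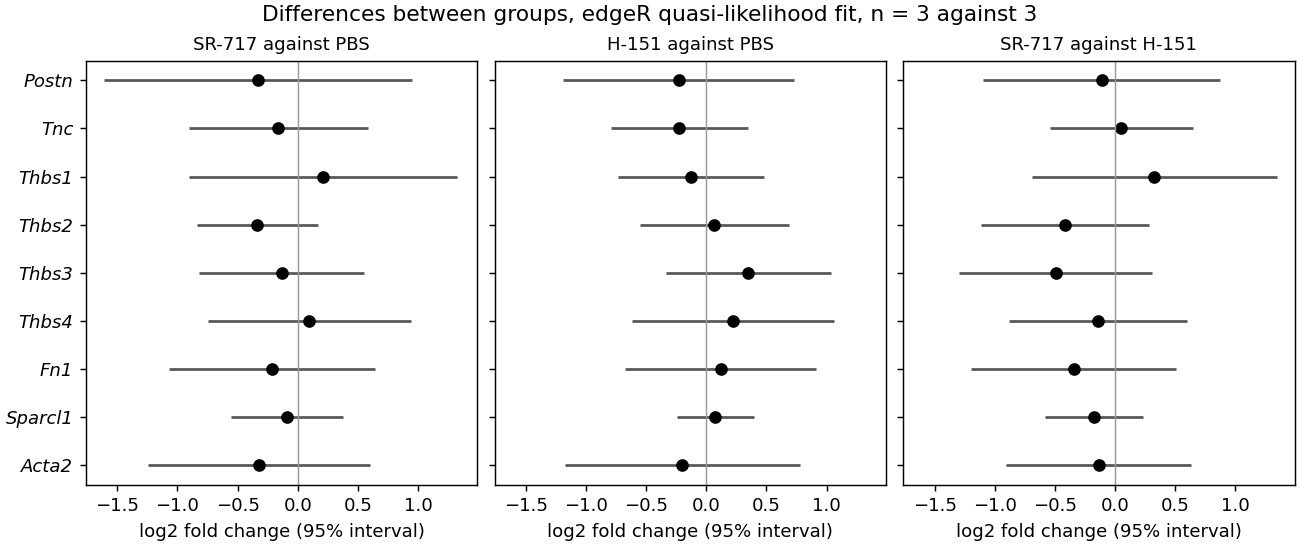
Log2 fold changes (horizontal axes) of the 9 genes (vertical axis) in 3 comparisons of 3 against 3 libraries, as points with 95% intervals from edgeR's quasi-likelihood fit. Every interval includes 0, and those of Postn and Thbs1 are wide where those of Sparcl1 are narrow.

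Libraries of the same group differed widely for several genes. The within-group SD of log2 CPM was 0.66 for Postn, 0.55 for Thbs1, 0.54 for Acta2 and 0.50 for Thbs4, and 0.19 for Sparcl1. Pooled over all 3 groups, PBS included, it was 0.33 for Thbs2 and 0.44 for Thbs3. Their log2 fold changes between SR-717 and H-151 were -0.41 and -0.49. Among H-151 libraries alone the SD was larger than these changes, at 0.49 (Thbs2) and 0.52 (Thbs3). Among SR-717 libraries alone it was smaller, at 0.27 (Thbs2) and 0.45 (Thbs3). Among the 14294 genes tested over 9 libraries, 82.2% had a lower within-group SD than Postn and 22.1% a lower one than Sparcl1. SR-717 replicate 1 held the lowest value of 5 of the 9 genes (Tnc, Thbs2, Thbs3, Fn1 and Sparcl1) and the highest of Thbs1. H-151 replicate 2 held the highest value of Thbs2, Thbs3 and Thbs4, and PBS replicate 1 that of Postn and Acta2.

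**Figure D3:**
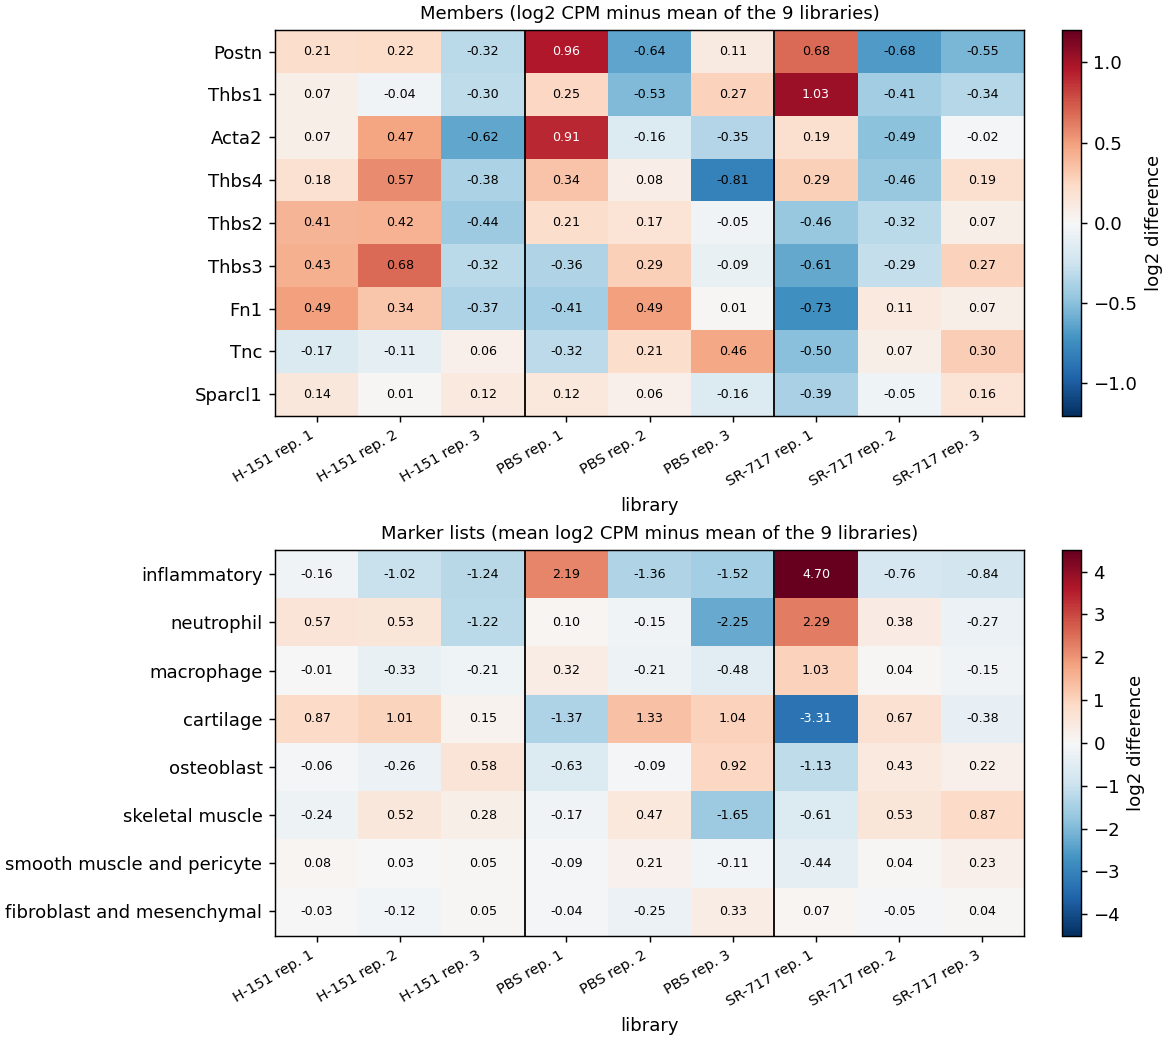
Upper panel, log2 CPM of each gene in each library minus its mean over the 9 libraries; lower panel, the same for the mean log2 CPM of 8 marker lists, with libraries on the horizontal axes, black lines between groups and a wider colour scale below. SR-717 replicate 1 is high in Thbs1 (1.03) and Postn (0.68) and low in Fn1 (-0.73), and in the lower panel it is high in inflammatory genes and low in cartilage markers.

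The genes did not vary as 1 block. Over the 9 libraries, 24 of the 36 pairs had a positive Pearson r of log2 CPM and 12 a negative one, and 6 changed sign without SR-717 replicate 1. These are descriptions over libraries that share their scaling, and no p is attached to them. Postn went with Thbs1 (r = 0.83, and 0.89 without SR-717 replicate 1) and Acta2 (0.76 and 0.78), and Acta2 with Thbs4 (0.79 and 0.79). Thbs3 went with Fn1 (0.87 and 0.81) and with Thbs2 (0.82 and 0.76). Tnc ran opposite to Postn (-0.71 and -0.62), Acta2 (-0.61 and -0.66) and Thbs4 (-0.64 and -0.64). Transcripts of Tnc and Postn, whose proteins are often named together in granulation tissue, thus tended to opposite directions. This did not hold in every library. PBS replicate 3, the highest in Tnc (0.46 above the mean of log2 CPM), was also above the mean in Postn (0.11). With PBS replicate 1 left out as well, r was 0.90 for Postn with Thbs1, 0.75 for Thbs3 with Fn1, 0.52 for Postn with Acta2 and -0.33 for Tnc with Postn. Acta2 then had r = 0.97 with Thbs3, 0.92 with Thbs2 and 0.68 with Fn1, against 0.14, 0.57 and -0.14 over the 9 libraries. Postn had 0.46 with Thbs3 and 0.19 with Fn1, against -0.28 and -0.51. Thbs1 with Acta2 went from 0.43 to 0.26. The split of Postn, Thbs1 and Acta2 from Thbs2, Thbs3 and Fn1 thus depended on these libraries.

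**Figure D4:**
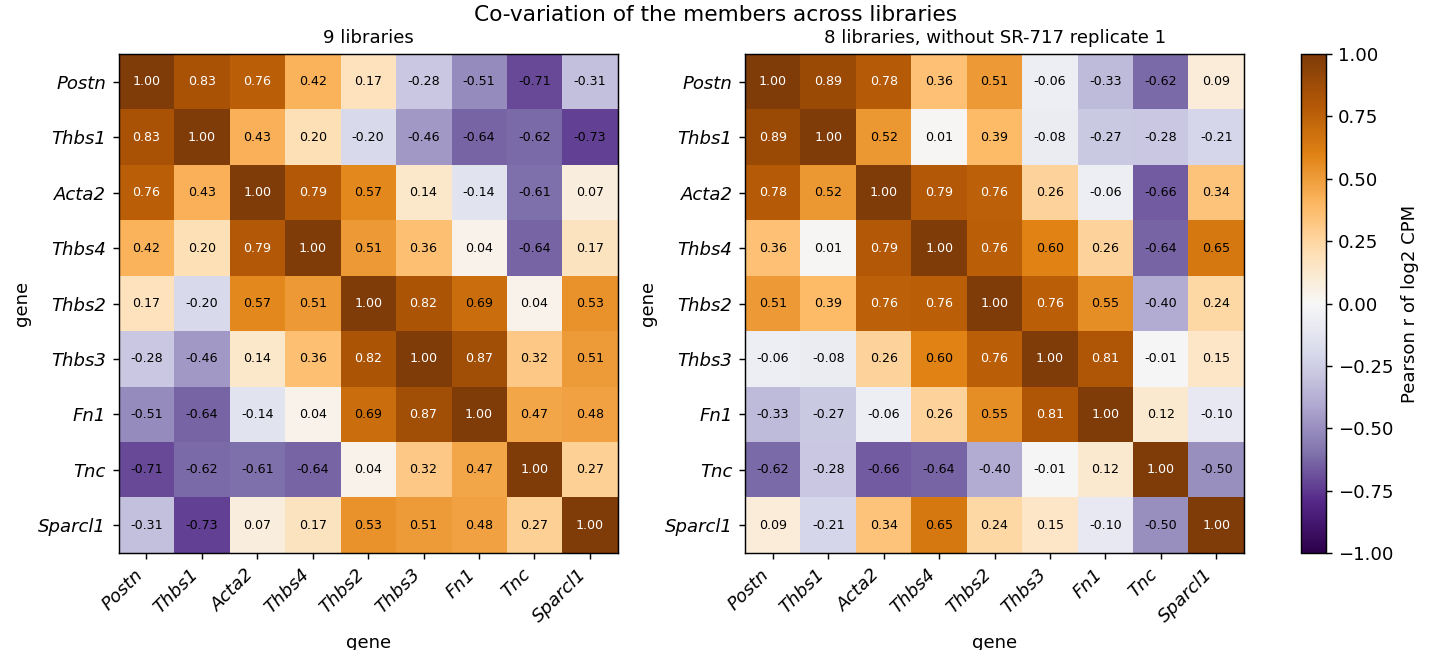
Pearson r of log2 CPM between each pair of genes over the 9 libraries (left) and over 8 libraries without SR-717 replicate 1 (right), with genes on both axes. Postn, Thbs1 and Acta2 are positively related in both panels, as are Thbs2, Thbs3 and Fn1, while Tnc is negative with Postn, Acta2 and Thbs4. Without PBS replicate 1 as well, which is not drawn, Acta2 had r = 0.97 with Thbs3 and 0.52 with Postn.

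Marker lists of other cell types moved with these differences, and their part in the results was not tested. The level of the 7 cartilage markers had r = 0.86 with Fn1 over 9 libraries, 0.76 without SR-717 replicate 1 and 0.61 without PBS replicate 1 as well. The 6 osteoblast markers (Bglap, Ibsp, Sp7, Runx2, Alpl and Dmp1) had r = 0.87 with Tnc and -0.81 with Thbs4, and 0.66 and -0.94 without both libraries. Their summed level was 2799.6 to 5717 CPM in the H-151 group, 2617 to 6610.2 CPM in the PBS group and 1384 to 4791 CPM in the SR-717 group. The inflammatory list had r = 0.83 with Thbs1 and 0.73 with Postn, but 0.060 and 0.18 without both libraries, so these 2 relations rested on them. With Tnc the inflammatory list had r = -0.83, and -0.69 without both libraries. In SR-717 against H-151 all 7 of 7 inflammatory genes lay above 0 (median 4.14), and 4 were called higher, where 0.367% of all genes were. In SR-717 against PBS 7 of 7 lay above 0 (median 2.27), with 0 called. In H-151 against PBS 6 were tested, and 5 lay below 0 (median -1.60), with 0 called. SR-717 replicates 2 and 3 summed to 55.7 and 46.5 CPM for this list. The 7 neutrophil markers had r = -0.82 with Tnc and 0.70 with Thbs4, and -0.77 and 0.75 without both libraries. They summed to 914 to 3011 CPM in the H-151 group, 429 to 2604 CPM in the PBS group and 1814 to 11008 CPM in the SR-717 group. The highest of these was SR-717 replicate 1, and SR-717 replicates 2 and 3 stood at 2678 and 1814 CPM. All 7 of 7 had a log2 fold change above 0 in SR-717 against PBS (median 1.71, against 0.014 over all genes tested), with 0 called. The same was true of 7 of 7 in H-151 against PBS (median 0.64, against -0.025). Fold changes of the marker lists without SR-717 replicate 1 are not given here. The 6 macrophage markers had r = -0.82 with Tnc, and -0.52 without both libraries. They summed to 3320.0 to 4075 CPM in the H-151 group, 2963 to 4761 CPM in the PBS group and 3557 to 8361 CPM in the SR-717 group. SR-717 replicate 1 was again the highest, and SR-717 replicates 2 and 3 stood at 3804 and 3557 CPM, within the PBS range. All 6 of 6 lay above 0 in SR-717 against PBS (median 0.44), with 0 called. In H-151 against PBS 2 of 6 did (median -0.14). The 8 skeletal muscle markers ranged from 4073 CPM in PBS replicate 3 to 24068 CPM in SR-717 replicate 3 and had r = -0.67 with Thbs1, -0.81 without both libraries. The 8 fibroblast markers summed to 52923 to 83519 CPM, and the 8 smooth muscle and pericyte markers, among them Myh11 at 25.7 to 47.5 CPM, to 1027 to 1633 CPM. The latter list had r = -0.25 with Acta2 and 0.20 without both libraries. Its r was -0.93 with Thbs1 and 0.84 with Sparcl1, and -0.74 and 0.77 without both libraries. For the contractile and myofibroblast genes listed further below, r with Acta2 was not computed. Among them Tagln, Actg2, Cnn1, Lmod1 and Cald1 were, like Acta2, highest in PBS replicate 1, and the rest of that list were highest in other libraries. The erythroid list had r = 0.80 with Fn1, and 0.59 without both libraries. The values of r in this paragraph are a selection from those of all members with every marker list. The keratinocyte list summed to at most 12.9 CPM in any library, with Krt1 and Krt5 at 0 in some. Of that list 1 gene was called higher in SR-717 against PBS (0.270% of all genes). Of 5 tendon markers 1 was called lower in SR-717 against H-151 (0.389%). Cartilage markers lay below 0 for 7 of 7 in SR-717 against PBS (median -0.94) and against H-151 (-1.02), with 0 called. Skeletal muscle markers lay above 0 for 8 of 8 in SR-717 (median 0.55) and H-151 (0.42) against PBS, with 0 called.

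For each gene, the transcripts with the most similar profile were sought among 9781 genes at a mean of at least 10 CPM, by Pearson r of log2 CPM over the 9 libraries. The best of so many is high by selection, and the values are a description. Thbs2 was closest to Itga11 (r = 0.97), a collagen-binding integrin of fibroblasts, and to the collagen VI genes Col6a1 and Col6a2 (0.96 and 0.96). Acta2 was closest to P4ha3, a collagen prolyl hydroxylase (0.98), and Spon1 (0.98). Thbs1 was closest to the hypoxia factor Hif1a (0.99), Postn to Azin2 (0.97) and Atf6, a sensor of the unfolded protein response (0.97), and Tnc to Cdc42ep1 (0.97) and Phc2 (0.97). Fn1 was closest to Smoc2 (0.97) and Prelp (0.97), both matrix proteins, Thbs3 to Rtkn (0.98) and Fndc1 (0.97), and Thbs4 to Adamtsl4 (0.95). For Sparcl1 the leading value was 0.93 for Pnkd, and it was 0.79 without SR-717 replicate 1. For the other genes named so far r was at least 0.95 without that library. Some of the leading 3 of a gene that are not named above fell lower. Among them were Megf6 for Fn1 (0.92), Insyn1 for Thbs4 (0.93) and Ccdc71l for Thbs1 (0.94).

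Other matricellular genes formed a list of 16, all tested, whose most abundant members were Sparc (9731 TPM) and Spp1 (3966 TPM). In SR-717 against PBS 1 of 16 was called lower and 0 higher, where 0.249% and 0.270% of all genes were. This was Ccn2, connective tissue growth factor and a target of TGF-β and YAP, which stood at 104, 155 and 158 CPM in the SR-717 group against 272, 219 and 208 CPM in the PBS group and 167, 266 and 177 CPM in the H-151 group. Its SR-717 libraries lay below all other 6. Groups did not overlap for 3.75% of genes tested in SR-717 against PBS and for 5.18% in SR-717 against H-151. The share of genes set apart from all other 6 libraries was not counted. The log2 fold change of Ccn2 against PBS was -0.75 (standard error 0.22, unadjusted p = 0.0140, adjusted p = 1.00, edgeR). Without both SR-717 replicate 1 and PBS replicate 1 it was -0.43, and without SR-717 replicate 1 alone -0.57, both short of a 1.5-fold change. In H-151 against PBS 1 of 16 was called higher and 0 lower (0.263% and 0.163% of all genes). This was Ccn3, a relative of Ccn2 that often opposes it, at 103, 91.5 and 96.5 CPM in the H-151 group, 50.2, 72.8 and 63.2 CPM in the PBS group and 51.5, 64.0 and 74.3 CPM in the SR-717 group. Each H-151 library lay above the other 6, where 3.87% of genes tested did not overlap in H-151 against PBS and 5.18% in SR-717 against H-151. The log2 fold change was 0.64 against PBS (standard error 0.16, unadjusted p = 5.97e-03, adjusted p = 1.00, edgeR). In SR-717 against H-151, Ccn3 was the 1 gene of 16 called lower (0.389% of all genes), by -0.63 (standard error 0.16, unadjusted p = 8.16e-03, adjusted p = 0.996, edgeR), and 0 were called higher (0.367%). Both Ccn3 comparisons share the H-151 libraries. Ccn3 fell short of a 1.5-fold change against PBS without PBS replicate 1 (0.52), and between SR-717 and H-151 without H-151 replicate 1 (-0.58) or SR-717 replicate 1 (-0.50). The median log2 fold changes of the list were -0.16, 0.027 and -0.27 in the order SR-717 against PBS, H-151 against PBS and SR-717 against H-151.

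Receptors of these proteins (16 genes, all tested, led by Calr at 717 TPM and the integrin subunit Itgb1 at 302 TPM) gave 1 call, in H-151 against PBS, where 0.263% of all genes were called higher and 0.163% lower. Cd36, a receptor for thrombospondins 1 and 2 and for fatty acids, was called higher in H-151 than in PBS, at 65.0, 48.8 and 75.8 CPM against 51.3, 37.1 and 31.2 CPM (log2 fold change 0.66, standard error 0.24, unadjusted p = 0.0285, adjusted p = 1.00, edgeR). The groups overlapped, and the SR-717 libraries stood at 52.4, 88.2 and 51.0 CPM. The call was lost, at log2 fold changes of 0.64, 0.51, 0.62 and 0.52, without H-151 replicate 1, H-151 replicate 3, PBS replicate 2 or PBS replicate 3. In the same comparison the groups did not overlap for 2 of the 16 receptors (3.87% of genes tested), Itga9 at -0.23 and Sdc1 at -0.44, both with lower H-151 libraries, not called and named after their values were seen. The median log2 fold changes of the receptors were -0.012, -0.14 and 0.12 in the same order of comparisons. None of the 14 genes of TGF-β signaling (led by Tgfb1 at 161 TPM and Tgfbr2 at 88.5 TPM) was called in any comparison, with medians of -0.070, -0.028 and 3.8e-03. None of the 14 genes of matrix assembly and crosslinking (led by Col1a1 at 9939 TPM and Col3a1 at 4757 TPM) was called, with medians of -0.16, -0.11 and -0.064. The 3 genes of that list whose SR-717 and PBS groups did not overlap (3 of 14, against 3.75% of genes tested) were Bmp1, Loxl2 and Mmp14, singled out after their values were seen, at log2 fold changes of -0.28, -0.39 and -0.22. In H-151 against PBS the groups did not overlap for 1 of the 14 (3.87% of genes tested), which was again Bmp1, at -0.31, and both comparisons share the PBS libraries. Of 19 contractile and myofibroblast genes (led by Tpm1 at 3292 TPM and Tpm2 at 1252 TPM, which skeletal muscle also expresses), 18 or 19 were tested and 0 were called in any comparison, with medians of -0.13, -0.11 and 0.018.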

How the data were processed

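The authors deposited expected counts (estimated reads per gene, not normalized) and TPM for 9 mouse callus libraries in 1 table, made by a service company. The build is mm10 per the labels. The aligner, counter and annotation are not given in the sources used here. A non-whole value made up 8.91% of the deposited counts, so each was rounded first, where the design had assumed counts. Per the labels, mRNA was enriched by poly(A) selection and dUTP marked the strand, and the extraction text speaks of cell lines although the tissue is bone.

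Differential expression was fitted on the whole table with edgeR 4.0.16 in R 4.3.3 (filterByExpr minimum 10, total 15; TMM; glmQLFit; glmQLFTest) on the 6 libraries of each pair of groups, without covariates. Called means an unadjusted p under 0.05 with a 1.5-fold change, as the study's text defines it. Adjusted p-values are Benjamini-Hochberg over all genes tested. Standard errors and 95% intervals come from the F statistic. Fold changes and unadjusted p-values of the fit were checked on simulated data, and the standard errors and intervals were not. Log2 CPM used a prior count of 2. Alternatives were DESeq2 1.42.0, its size factors, no filter, all 9 libraries, the replicate number as a block and each library left out.

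Deviations of same-numbered libraries correlated across genes by 0.30, 0.49 and 0.50 between H-151 and PBS, by 0.65, 0.34 and 0.14 between SR-717 and PBS, and by 0.34, 0.06 and 0.08 between SR-717 and H-151. Between H-151 and PBS the unlike-numbered libraries reached at most 0.02. Between SR-717 and PBS the unlike-numbered values that involved a replicate 1 were lower, from -0.56 to -0.20. Those between replicates 2 and 3 were not lower than the like-numbered ones. PBS replicate 2 had 0.34 with SR-717 replicate 3, and PBS replicate 3 had 0.20 with SR-717 replicate 2. The 0.65 joins the 2 libraries high on the first principal component. Pairing by number was therefore not established, and the labels only number the libraries. The main fits were unpaired, with the replicate number as a block only among the alternatives. Comparing counts between all 36 library pairs gave a chi-square of at least 25.8 per gene, and no library was a copy of another.

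The 9 genes and all lists were chosen with earlier results of these data known. Beside the 9 genes, the text names from each list other than the marker lists the called genes with the smallest p (at most 3) and the 2 with the highest mean TPM. It also names the genes most alike in profile. Outside this rule, named after their values were seen, are Bmp1, Loxl2, Mmp14, Itga9 and Sdc1 (groups that did not overlap) and the markers Col2a1, Myh11, Krt1 and Krt5. The same holds for Tagln, Actg2, Cnn1, Lmod1 and Cald1 (highest in PBS replicate 1).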

Additional observations from a re-analysis of the deposited data

How the results depend on the processing

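Of 27 log2 fold changes (9 genes, 3 comparisons), none turned direction or was called under the 5 other planned settings, and 34 of 162 values with 1 library left out turned direction, with a smallest adjusted p of 0.694 (edgeR). With the replicate block no call on the 9 genes or on Ccn2, Ccn3 or Cd36 changed. Small true changes cannot be told from 0 with 3 libraries a group and the spread seen here, although each of the 9 genes had 1817 or more counts in every library. The planned look at protein features was not run.

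Counts of called genes depended on the setting, and the cause was not tested. In SR-717 against PBS the count of 73 became 0 at an adjusted p under 0.05, 138 with DESeq2's Wald test, 194 without the filter on low counts, 176 with all 9 libraries in 1 fit, 443 with the replicate block, 118 without both SR-717 replicate 1 and PBS replicate 1 (chosen after seeing the data) and 95 to 319 with 1 library left out. In H-151 against PBS the count of 60 became 0, 127 without the filter, 262 with the block and 43 to 698 with 1 library left out. In SR-717 against H-151 the count of 107 became 0, 209 with DESeq2, 223 without the filter, 171 with all 9 libraries and 64 to 661 with 1 library left out. The block gave 143 there.

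With 1 library left out, the log2 fold changes that turned ranged as follows. In SR-717 against PBS they were -0.90 to 0.17 for Postn, -0.35 to 0.039 for Tnc, -0.42 to 0.46 for Thbs1, -0.42 to 0.052 for Thbs3, -0.17 to 0.34 for Thbs4, -0.41 to 0.048 for Fn1, -0.23 to 0.045 for Sparcl1 and -0.55 to 0.17 for Acta2. With both libraries left out, Thbs1 was -0.29, Sparcl1 0.12 and Acta2 0.034. In H-151 against PBS they were -0.53 to 0.29 for Postn, -0.33 to 3.5e-03 for Thbs1, -0.067 to 0.30 for Thbs2, -0.043 to 0.48 for Thbs4, -0.067 to 0.40 for Fn1, -4.3e-03 to 0.14 for Sparcl1 and -0.48 to 0.31 for Acta2. In SR-717 against H-151 they were -0.68 to 0.12 for Postn, -0.12 to 0.25 for Tnc, -0.30 to 0.57 for Thbs1, -0.36 to 0.11 for Thbs4 and -0.38 to 0.15 for Acta2.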
